A study of Mus musculus with 2 samples.

Results

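The Sfmbt2 intron cluster is an array of 119 microRNA genes, of the 2202 for which reads were counted in mouse gastrocnemius, a muscle of the calf. Members were the GENCODE mouse release 21 genes of type miRNA that lie wholly inside Sfmbt2 on its own strand. Small RNA was sequenced from 2 libraries of 1 group, female B6CASTF1/J mice aged 2 months, hybrids whose parents are of the strains C57BL/6J and CAST/EiJ. The labels give both libraries the same tissue, sex and age and 1 donor code, while numbering the females separately and calling the libraries biological replicates 1 and 2. There is no treatment and no second group, so the values describe this muscle and how far the libraries differ.

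MicroRNAs are short strands cut from hairpin transcripts, and bases 2 to 8 of a strand, the seed, pair with target messages. Sfmbt2 encodes a Polycomb group protein. In rodents one of its introns holds a long tandem array of microRNA hairpins named Mir297, Mir466, Mir467 and Mir669. The host gene is imprinted, with the paternal copy active, in extraembryonic tissue, and the array is known best from placenta and embryonic stem cells. Because the copies are so alike, a short read from one of them often matches several.

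None of the 119 members was matched in the RefSeq microRNA table. RefSeq held a mature strand for 8 same-name genes on other chromosomes. To show what sequences of these names look like, 5 of them are given (GRCm38.p6), 5′ to 3′, with the seed in capitals.
miR-466i-3p: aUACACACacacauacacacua
miR-466k: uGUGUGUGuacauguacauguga
miR-467f: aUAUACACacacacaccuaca
miR-467g: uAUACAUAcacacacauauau
miR-669n: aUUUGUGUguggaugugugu

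All 5 are built largely from alternating purine and pyrimidine bases, in runs of CA or UG. The genes of these 5 strands, Mir466i, Mir466k, Mir467f, Mir467g and Mir669n, had 0 counts in both libraries. The letters of the miR-467g seed occur on the own strand of 78 of the 119 members (65.5%), against 143 of all 2202 microRNA genes (6.49%). The miR-466i-3p seed letters occur in 60 members (50.4%), against 180 of all genes (8.17%). The miR-466k seed letters occur in 50 members (42.0%), the miR-467f letters in 27 (22.7%) and the miR-669n letters in 10 (8.40%). Over all genes these 3 shares were 9.54%, 5.13% and 2.59%. Of the strands not printed, the miR-466j letters occur in 62 members (52.1%), against 4.81% of all genes. The miR-466q letters occur in 30 members (25.2%), against 2.63%. The miR-467h letters occur in 1 member (0.840%), near the share of all genes (0.636%). A match anywhere in a hairpin is not a seed of that member. The run TGTGTGTG, or its reverse complement CACACACA on the other strand, was found in 88 members (73.9%), against 169 of the 2083 other microRNA genes (8.11%), each searched over its annotated length. None of the 38 genes of the Mir379 to Mir410 cluster, the large imprinted array on chromosome 12, held it on either strand.

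The array lies on the plus strand of chromosome 2, from 10465287 to 10518279 in mm10, a span of 53.0 kb. Sfmbt2 itself (ENSMUSG00000061186.15) runs from 10370510 to 10595253. All 119 members sit in 1 intron, from 10461473 to 10523944, which is intron 10 of 1 annotated transcript and intron 11 of another, each with 23 exons. No member overlaps another, and the intron has no annotated microRNA gene on the minus strand. Of the members, 71 carry a Mir name (29 Mir669, 23 Mir466, 14 Mir467 and 5 Mir297) and 48 carry only a Gm name. By sequence, 45 of the 48 Gm members were closest to a Mir669 hairpin, 2 to a Mir466 and 1 to a Mir467. The identity of the 45 to the closest Mir669 ranged from 80.6% to 100%, with a median of 95.2%. Annotated lengths ran from 73 to 127 nt, with a median of 98 nt.

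The middle of the array is a tandem repeat. The 10 Mir467a copies start at a median spacing of 2462 bp, and Mir669a-4 to Mir669a-12, 9 copies, at a median of 2454.5 bp. The 119 members hold 88 distinct sequences, and 47 members are identical to at least 1 other, in 16 groups. The 9 Mir669a copies of that series share 1 sequence. A second group of 7 holds 6 Mir467a copies and Gm25022. All 47 members with an identical copy had 0 counts in both libraries. Reads within such copies align to several places and enter no gene, so these 0 counts follow from the counting.

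Reads on the own strand of a member numbered 841 of 1950204 microRNA gene counts in replicate 1 and 497 of 2291821 in replicate 2. The share was 0.0431% for replicate 1, with a 95% Clopper-Pearson (exact) interval of 0.0403% to 0.0461%. It was 0.0217% for replicate 2, with bounds of 0.0198% and 0.0237%, so that the mean came to 0.0324% ± 0.0152 (SD, n = 2). Intervals here and below hold counting error alone. Reads copied by PCR do not each stand for a molecule, so the true error can be larger than these bounds. The Mir379 to Mir410 cluster, with fewer genes, held 1.22% and 1.14%. In bulk tissue, fewer cells of a type and less RNA per cell cannot be told apart. Reads that aligned to several places enter no gene, and their number was 6593896 in replicate 1 and 10399139 in replicate 2. For every read counted in the array, 7841 and 20924 such reads were listed over the whole library. How many came from the array was not tested, so the sums are reads placed in 1 member and not the output of the array.

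Counts fell on 10 of the 119 members (8.40%), against 583 of all 2202 microRNA genes (26.5%). A minimum of 10 counts per library was met by 5 members (4.20%), against 278 genes overall (12.6%). In the Mir379 to Mir410 cluster 32 of 38 genes reached that minimum. The 10 members were 6 of 29 Mir669, 3 of 14 Mir467 and 1 of 23 Mir466 genes. No Mir297 and no Gm member had a count. For reads placed in 1 member, a count of 0 allows up to 1.54 CPM (counts scaled to 1e+06 own-strand microRNA counts) in replicate 1 and 1.31 CPM in replicate 2, the worth of 3 counts. A count of 0 sets no limit on RNA whose reads align to several places. This touches most 54 members, 22 of the 48 Gm members among them, which have no 22-nt stretch of their own, as described below. Many other members at 0 share part of their sequence, such as Gm25673 with 1.89% of windows its own. No mature strand of a member was matched, so whether it lies in the shared part is not known. Where it does, a count of 0 may miss the RNA of these members too. The 10 same-name genes outside Sfmbt2 also had 0 counts. Reads on the opposite strand were 0 for all 119 members in both libraries.

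**Figure D1:**
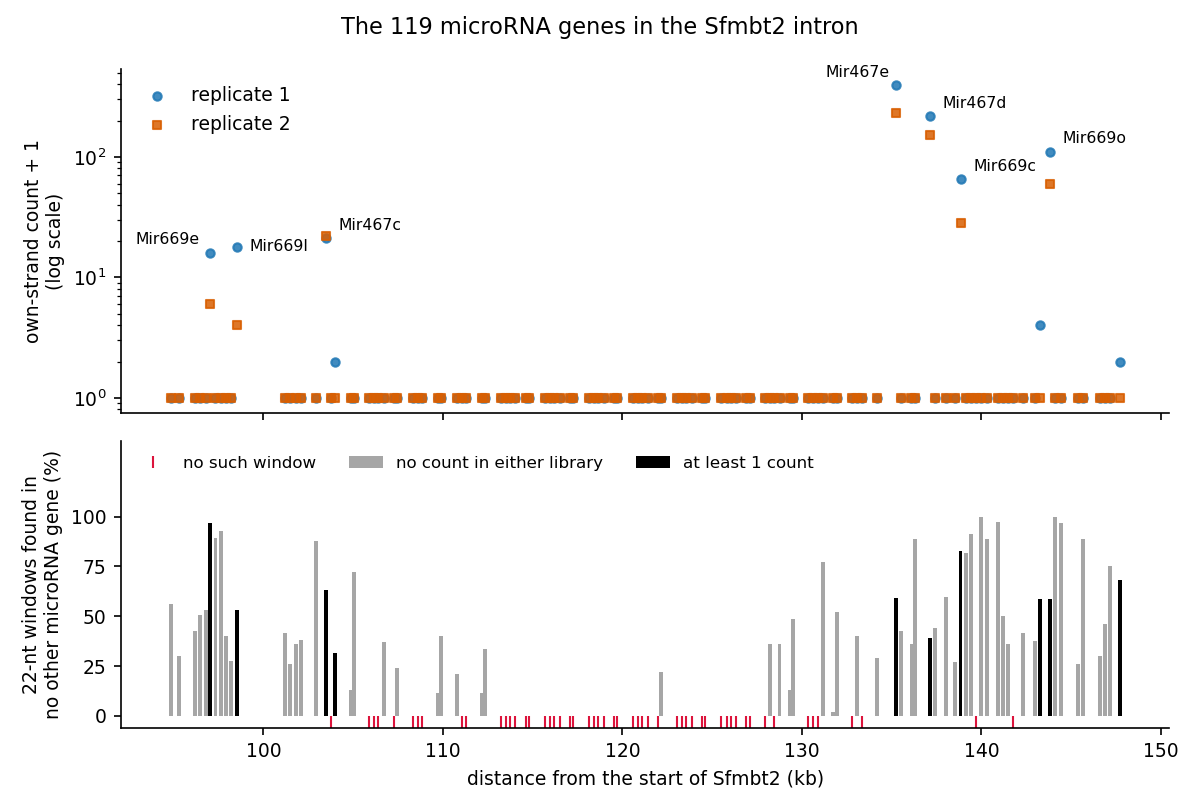
The upper panel plots each member's own-strand count plus 1 (log scale) by its distance from the start of Sfmbt2 in kb, for replicate 1 (circles) and replicate 2 (squares). The lower panel gives the percent of its 22-nt windows found in no other microRNA gene, black where the member had a count, with red ticks for the 54 members that have no such window; counts lie in the outer parts and none in the middle.

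The plot of the array by position shows where the counts lay. The first 19 members, Gm22072 to Mir669a-3, held 53 counts in replicate 1 and 29 in replicate 2. The next 70, from Mir669k at 10475300 to Gm26398 ending at 10504773, held 0 counts in either library over 29.5 kb. The last 30, from Mir467e to Mir669h, held 788 and 468 counts, or 93.7% and 94.2% of the array's total. These 3 blocks were drawn after the counts had been seen.

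Mir467e led the array. Its counts were 394 in replicate 1 and 231 in replicate 2, or 202.0 CPM (95% exact interval 183 to 223) and 100.8 CPM (88.2 to 115). Replicate 1 was the higher, and the intervals did not overlap. The mean was 151 ± 71.6 CPM (SD, n = 2), rank 134 of the 2202 genes. Mir467e (ENSMUSG00000076948.2) lies from 10505721 to 10505807.

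Mir467d (ENSMUSG00000077021.2, 10507630 to 10507714) came next, with 217 counts in replicate 1 and 151 in replicate 2. These counts are 111 CPM (97.0 to 127) and 65.9 CPM (55.8 to 77.3), again higher in replicate 1 and without overlap. Its mean was 88.6 ± 32.1 CPM (SD, n = 2). Mir467e and Mir467d together held 72.7% of the array's counts in replicate 1 and 76.9% in replicate 2.

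The third of the Mir467 genes with counts, Mir467c (ENSMUSG00000077049.2, 10473931 to 10474027), lies apart from these, in the first block. It had 20 counts in replicate 1 and 21 in replicate 2. At 10.3 CPM (6.26 to 15.8) and 9.16 CPM (5.67 to 14.0), the libraries overlapped in their counting error. The other 11 Mir467 members, among them Mir467b and the 10 Mir467a copies, had 0 counts.

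Among the Mir669 genes, Mir669o (ENSMUSG00000077086.1, 10514300 to 10514395) was the highest. It had 109 and 59 counts, or 55.9 CPM (45.9 to 67.4) in replicate 1 and 25.7 CPM (19.6 to 33.2) in replicate 2. Mir669c (ENSMUSG00000076118.1, 10509296 to 10509404) had 64 and 27 counts, or 32.8 CPM (25.3 to 41.9) and 11.8 CPM (7.76 to 17.1). Replicate 1 was higher for both, without overlap of the intervals.

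Mir669l and Mir669e, in the first block, passed 10 counts in replicate 1 and not in replicate 2. Mir669l (10468971 to 10469068) stood at 17 counts for replicate 1 against 3 for replicate 2, and Mir669e (10467495 to 10467613) at 15 against 5. Mir467c, at 20 and 21 counts, was the lowest member to meet the minimum in both libraries. Mir466n, the only Mir466 gene with a count, had 3 counts in replicate 1 and 0 in replicate 2. Mir669a-3 and Mir669h had 1 count each in replicate 1 and 0 in replicate 2. These last 3 are at or under the limit of 3 counts and are not read as expression.

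**Figure D2:**
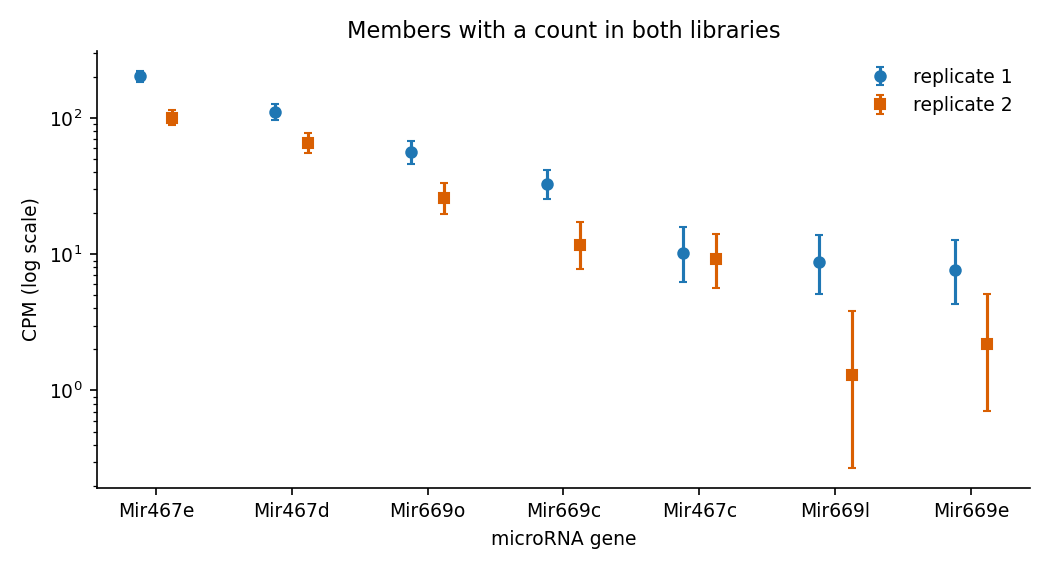
CPM on a log scale for the 7 members with a count in both libraries, with circles for replicate 1, squares for replicate 2 and bars for the exact 95% counting interval. The order runs from Mir467e, at 202.0 and 100.8 CPM, down to Mir669e, and Mir467c is the member whose libraries lie closest.

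The order of the 5 members that reached the minimum was Mir467e, Mir467d, Mir669o, Mir669c and Mir467c in both libraries. Reads come from the short mature strands and were not divided by hairpin length, but the order was the same per nucleotide of hairpin, from 4.53 counts per nt for Mir467e to 0.206 for Mir467c in replicate 1. The order was read from the same counts, so no test is given for it. The counting intervals of neighbours in the order did not overlap within either library, except for Mir669c and Mir467c in replicate 2, at 27 and 21 counts. The members also differ in how much of their sequence can receive a read placed in 1 gene, from 39.1% of 22-nt windows in Mir467d to 83.0% in Mir669c.

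Summed over the array, replicate 2 was 1.94-fold lower than replicate 1 (exact binomial 95% interval 1.74 to 2.17, counting error, library sizes scaled by edgeR's trimmed mean of M values, TMM). Without Mir467e, the leading member, the sum was 1.93-fold lower (1.65 to 2.25). The Mir467 sum was 1.80-fold lower (1.58 to 2.04) and the Mir669 sum 2.53-fold lower (1.97 to 3.26). These intervals overlap, and the difference between the names was not tested. The Mir379 to Mir410 cluster was 1.05-fold lower in replicate 2 (1.03 to 1.07).

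All 10 members with a count had a lower CPM in replicate 2, against 326 of all 583 genes with a count (55.9%). For Mir467c this lay within counting error. Another 3 of the 10 had 3 counts or fewer, all of them in replicate 1. For these 3 the direction was given by having a count at all, so they add nothing to the comparison. Among the genes tested below, the median log2 ratio of the 5 members was −0.97, beside −0.03 over all 278 genes. Such counts are a description of these libraries, since neighbours in 1 transcript share their source.

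Genes were then compared between the libraries by a two-sided exact binomial test with Benjamini-Hochberg adjustment over the 278 genes. This compares 2 libraries and not conditions. A gene was called at an adjusted p under 0.05 and at least 2-fold, which held for 33 genes (11.9%), 26 of them lower in replicate 2 (9.35%). Among the 5 members tested, 2 were called, Mir669c and Mir669o, both lower in replicate 2. The log2 ratio, replicate 2 over replicate 1, was −1.43 for Mir669c (SE 0.329, adjusted exact p = 1.96e-05) and −1.08 for Mir669o (SE 0.232, adjusted exact p = 5.81e-06). Mir467e, at −0.97 (SE 0.119, adjusted exact p = 7.0e-16), and Mir467d, at −0.72 (SE 0.153, adjusted exact p = 6.72e-06), passed the p-value but not the fold minimum. Mir467c was at −0.13 (SE 0.445, adjusted exact p = 0.898), and the exact 95% interval of its fold, replicate 1 over replicate 2, was 0.562 to 2.12.

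The test sets these ratios against counting error alone. With the biological coefficient of variation of 0.352 estimated by edgeR from the same libraries, the edgeR exact test called 0 of the 5 members and 7 of the 278 genes. The lowest adjusted p of a member in that test was 0.968, for Mir669c. That coefficient is 1 value over the 278 genes, 5 of them members, with both libraries taken as 1 group. It holds the differences between these libraries, so the test sets a member's ratio against their spread over all genes. It cannot tell whether a ratio exceeds the spread between animals. The spread between animals has no separate estimate here. Mir669l and Mir669e missed the minimum and were not tested. Their folds, replicate 1 over replicate 2, were 6.50 (exact 95% interval 1.88 to 34.6) for Mir669l, on 3 counts in replicate 2, and 3.44 (1.19 to 12.1) for Mir669e, on 5. Both were picked for passing the minimum in replicate 1 only, which raises the fold toward that library. The intervals do not allow for this choice, so nothing is read from their lying above 1.

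**Figure D3:**
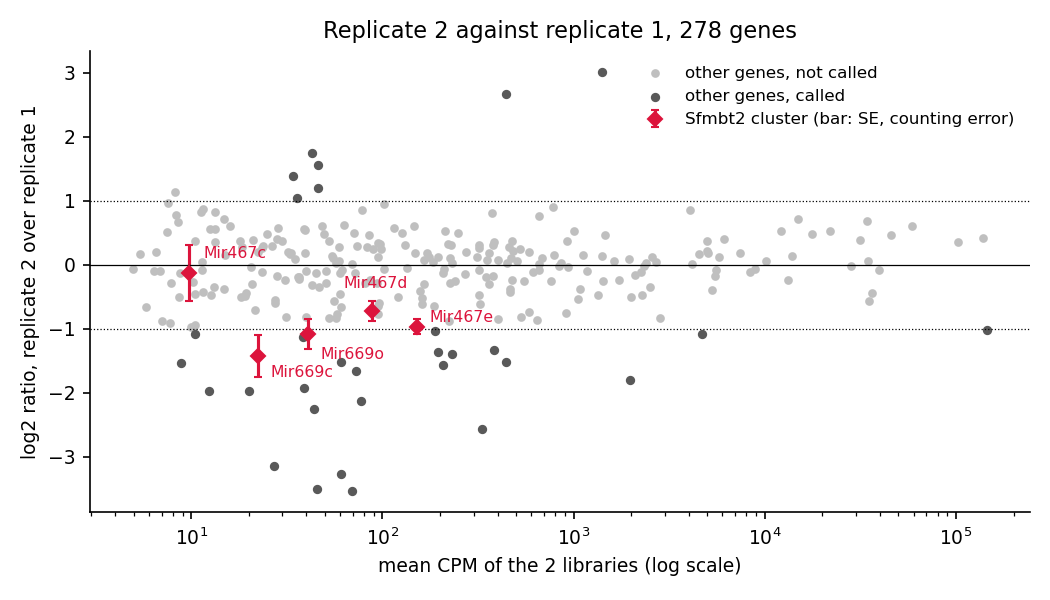
Log2 ratio of replicate 2 over replicate 1 against mean CPM (log scale) for the 278 genes tested, with the 5 Sfmbt2 members as red diamonds (bars are the SE from counting error) and dotted lines at 2-fold. All 5 members lie below 0, from −0.13 for Mir467c to −1.43 for Mir669c, among other genes that lie on both sides.

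The tissue's markers differed between the same libraries. The 8 skeletal muscle microRNAs were all present, at 27396 CPM in replicate 1 and 45541 CPM in replicate 2, all 8 higher in replicate 2. Mir206 alone gave 52086 of their 53427 counts in replicate 1 and 96104 of 104371 in replicate 2, while Mir1a-1 had 23 and 34. The rise was uneven. Mir499 went from 315 to 2497 CPM (615 and 5722 counts), a larger step than that of Mir206, from 26708 to 41934 CPM. Reads that aligned to several places are not in the sums of the list, which are therefore not the full level of these microRNAs. The smooth muscle pair Mir143 and Mir145a was at 202581 and 97334 CPM, and 2.03-fold lower in replicate 2 after TMM scaling. The endothelial Mir126a was 1.33-fold higher there on the same scale. The red cell pair was at 787 and 460 CPM, and the 4 leukocyte microRNAs at 3151 and 2461 CPM with 3 of 4 lower in replicate 2. The list for placenta and pluripotent cells, the Mir290 and Mir302 groups, summed to 8 and 14 counts over 10 genes, with Mir290a, Mir291a, Mir292, Mir294, Mir295 and Mir302c at 0. The part of any of these cell types in the array's lower counts in replicate 2 was not tested.

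The members' sequences were last compared with all other microRNA genes, in windows of 22 nt, near the length of a mature microRNA. A window was called unique when it occurs in no other microRNA gene on either strand. Of the 119 members, 54 (45.4%) had no unique window, against 280 of the 2083 other genes (13.4%). All 54 had 0 counts in both libraries, and 51 of them lie in the middle block. A 22-nt read that matches such a member exactly also matches another gene, and where these lie at different places it is listed with the reads aligned to several places. Counts were nonetheless given to 23 of the 280 other genes without a unique window (8.21%). For the 54 members, none of which overlaps another, a count of 0 therefore does not tell whether such reads were present.

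Every member with a count had unique windows, which was largely set in advance, since reads aligned to several places enter no gene. Their share ranged from 31.8% for Mir669a-3 to 96.9% for Mir669e, with a median of 59.0% over the 10. The 109 members without a count ranged from 0% to 100%, with a median of 1.89%. Mir467e had 59.1% unique windows, Mir467d 39.1%, Mir669o 58.7%, Mir669c 83.0% and Mir467c 63.2%, so the share did not follow the order of the levels. With 1 mismatch allowed, 69 members had no unique window. The 5 members then had 13.6%, 20.3%, 13.3%, 63.6% and 19.7%, in the same order. The closest other member was Mir467c for Mir467e (94.3% identity) and Mir467a-1 for Mir467d (95.9%). Mir669o was closest to Mir669a-10 (95.4%), one of 9 identical copies with 0 counts, and Mir669c, of these 4 the least like its closest other member, was closest to Gm24342 (83.7%).

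Counts were found in 0 of the 54 members without a unique window, in 0 of the 8 with up to 25%, in 2 of the 29 between 25% and 50% and in 6 of the 12 between 50% and 75%. Above 75% the share of members with a count was lower again. Of the 16 members with over 75% unique windows, 14 had 0 counts. These included Mir466g and Gm22239, in which all windows were unique, and Mir466h and Mir466l of the Mir466 name. A count was found in 2 of these 16 members (12.5%), against 529 of the 1327 other genes in that range (39.9%). Between 50% and 75%, 7 of 161 other genes had a count (4.35%). Both ranges hold under 20 members. Copies elsewhere in the genome, outside microRNA genes, were not looked for, so a window called unique here may still occur in other CA or TG repeats.

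**Figure D4:**
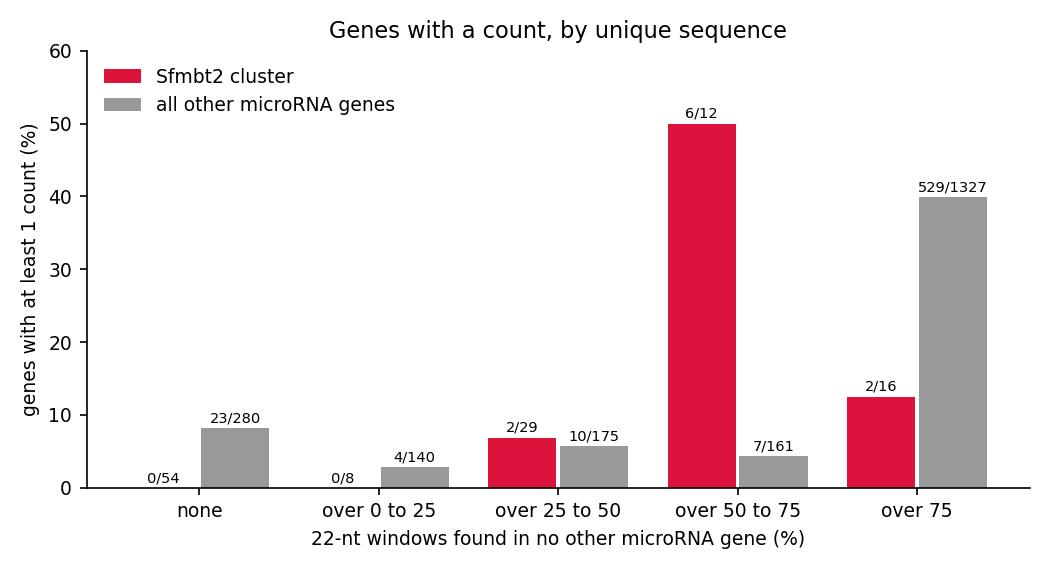
Percent of genes with at least 1 count, by the percent of their 22-nt windows found in no other microRNA gene, for the 119 members (red) and the 2083 other microRNA genes (grey), with the number of genes above each bar. The members' bars are at 0 of 54 where no window is unique and at 2 of 16 above 75%, where 529 of 1327 other genes had a count.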

How the data were processed

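The authors deposited raw counts of reads per microRNA gene for each library, for both strands together, the own strand and the opposite strand. Reads were assigned to GENCODE mouse release 21 on mm10, per the submitters' processing notes. Which aligner and counter were run is not given in the sources used here. Own-strand counts were used. Rows that name no gene (reads unmapped, aligned to several places or outside genes), 79.3% and 84.1% of all reads listed, were left out of library sizes. The animals carry CAST/EiJ chromosomes while reads were assigned on mm10, and what this does to the counts was not tested.

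Positions and hairpin sequences came from the same GENCODE release, for all 2202 genes. For log2 ratios 0.5 counts were added to each library, and the SE holds counting error. With 1950204 and 2291821 own-strand counts, 1 count was worth 0.513 and 0.436 CPM. Identity is the edit distance of the shorter hairpin within the longer, over the shorter length. The comparison of the libraries and the window search were checked on simulated data. The simulated counts held counting error alone, so the check does not cover spread between libraries. Members with 10 counts in each library are named in full, then called members, and the others by name group. Mir669e, Mir669l, Mir669a-3, Mir669h and members named for their sequence were added after values were seen, as were the window searches. Members and lists were chosen with earlier results of these data known. R 4.3.3, edgeR 4.0.16, DESeq2 1.42.0, Python 3.11.15, scipy 1.17.1 and edlib 1.3.9 were used.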

Additional observations from a re-analysis of the deposited data

Results flagged for a closer look

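Reads that aligned to several places lie outside the gene counts and made up 70.1% of the reads listed in replicate 1 and 72.3% in replicate 2. The files do not say which genes they match.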

How the results depend on the processing

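The array's share of 0.0324% fell to 0.00620% over all reads listed and to 0.00688% over gene counts plus reads aligned to several places, by the larger totals alone. It was 0.0438% on unstranded counts, and the single libraries ranged from 0.0217% to 0.0431%. The 2 called members became 4 without a count minimum, where Mir669e and Mir669l joined Mir669c and Mir669o, 4 without a fold minimum, where Mir467e and Mir467d joined, and 0 with edgeR's dispersion, estimated with both libraries as 1 group and so holding the difference itself, of 48 in 583, 154 in 278 and 7 in 278 genes called. With plain totals, 3 were called, Mir467e joining, of 34 in 278 genes. With at least 5 counts in each library, 3 were called, Mir669e joining, of 39 in 314 genes. The number stayed at 2 with DESeq2 size factors, of 32 in 278 genes, and on unstranded counts, of 31 in 254. The summed log2 ratio stayed between −0.99 and −0.93 under the alternatives run. Leaving out a library leaves no comparison. The number of members with a count was 10 in replicate 1 and 7 in replicate 2. With windows of 18, 20 or 25 nt, chosen after seeing the data, 54, 54 and 53 members had no unique window, and none of them had a count. The counting leaves such members little room for a count, so this is no independent check. No paired analysis was possible because there is 1 group. Depth limits what can be read for the 109 members at 0, and for the 54 without a unique window a count sets no limit. Reads of other members at 0 may also be missed where their windows are shared.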
